A study of Mus musculus with 4 samples.

Results

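Genes for 4 families of protease inhibitors were examined in tumour epithelial cells of chemically induced skin squamous cell carcinomas (SCC) of the mouse. They are the serpins, the cystatins, the WAP (whey acidic protein) four-disulfide core proteins and the Kazal inhibitors. Members were taken by gene symbol: those that start with Serpin or Wfdc, those that are Spink or Cst followed by a digit, and Csta1, Cstb and Slpi. This gave 69 of the 18193 genes on the array, made up of 40 serpins (14 Serpina, 18 Serpinb and 8 others), 10 cystatins, 12 WAP genes and 7 Kazal genes. One of them, Serpina4-ps1, is annotated as a pseudogene. RNA was measured on 4 whole-genome Affymetrix arrays, 1 per sample. There were 2 samples of Sox2-GFP+ cells and 2 of Sox2-GFP- cells, which served as controls, and 2 tumours in 2 mice supplied them. Cells of every sample came from malignant tumours, excluded the Hoechst dye, carried Epcam and lacked CD45, CD31 and CD140a, so a reporter for the transcription factor Sox2 is what separates the groups. No strain, age, carcinogen or structure of the reporter allele is stated in the labels, nor whether animals were pooled.

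Serpins trap serine proteases, and some trap cysteine proteases, by a conformational change that destroys inhibitor and target together. Clade A serpins are mostly secreted plasma proteins of the liver, while clade B serpins stay inside cells and many are made by stratified epithelia. Cystatins block the papain-like cathepsins of the lysosome. WAP and Kazal proteins are small, secreted and held by disulfide bonds, and many inhibit elastase-like or trypsin-like proteases. In the epidermis, inhibitors of these families hold back the kallikreins and cathepsins that act while the cornified layer forms and sheds.

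Values are the deposited log2 intensities, whose background correction and normalization the labels leave unstated. The array medians were 5.49 and 5.51 in Sox2-GFP+ cells and 5.60 and 5.56 in Sox2-GFP- cells. Each gene is represented by its brightest probe set, a difference is Sox2-GFP+ minus Sox2-GFP- on the log2 scale, and an intensity is not compared between genes. No detection calls were used, so a value under the array median is treated here as dim and a fold change against it may understate the difference. All 4 arrays lay above their own median for 15 members, some arrays did for 15 and no array did for 39. Scaling the arrays to their bacterial spike-in transcripts added 0.79 to every difference and turned 21 members that were below 0 to above 0, so each sign given here is on the deposited scale. The number of arrays, 2 per group, sets the precision.

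Epithelial identity was checked with marker genes. All 5 keratinocyte markers, Epcam, Cdh1, Krt5, Krt14 and Trp63, were above the median in every array, with a summed log2 level of 14.73 and 14.86 in Sox2-GFP+ cells and of 14.78 and 14.85 in Sox2-GFP- cells, a sum carried by the bright keratins. Cdh1, E-cadherin, read 9.64 and 10.36 in Sox2-GFP+ cells and 10.74 and 11.18 in Sox2-GFP- cells, and Trp63 was 0.24 ± 0.18 (SE) above. Fibroblast transcripts were also present. The summed level of 9 markers was 13.92 and 10.87 in Sox2-GFP+ cells against 15.35 and 14.18 in Sox2-GFP- cells. All 9 were below in both Sox2-GFP+ arrays, where 14% of all genes were. In sorted populations, fewer cells of a type and less RNA per cell cannot be told apart. Replicate 2 of the Sox2-GFP+ cells had the lowest sum of the fibroblast, endothelial, leukocyte, suprabasal keratinocyte, mast cell and melanocyte lists. The mast cell list had all 4 markers below in both Sox2-GFP+ arrays (background 14%). The sums of that list were 7.34 and 6.51 in Sox2-GFP+ cells and 9.26 and 7.64 in Sox2-GFP- cells. The melanocyte list had 3 of 4 below (background 14%), with sums of 7.53 and 7.25 in Sox2-GFP+ cells and 8.90 and 8.41 in Sox2-GFP- cells.

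The question of the comparison was which inhibitor genes differ between Sox2-GFP+ and Sox2-GFP- tumour epithelial cells. Wfdc2 stood apart upward, and Cst6, Serpinb3a, Serpina3n and Wfdc5 stood apart downward, each with at least 1 log2 unit between the nearest arrays of the groups. This was 1.45% of the members upward, where 0.665% of all genes did so, and 5.8% downward, where 1.36% of all genes did so. None of the 69 members passed the limma test, fitted without a replicate block, at an adjusted p of 0.05 (adjusted p = 0.157 to 0.999). Neither did any other gene, so the background of called genes was 0%. The fit with a replicate block is in the closing section. At an unadjusted p under 0.05, 3 members lay higher (background 9.75%) and 8 lower (background 5.22%). The groups did not overlap, by any margin, in 15 members above (background 35.5%) and 16 below (background 14%), and they overlapped in 38. By a margin of 0.5, the counts were 2 above (background 5.23%) and 7 below (background 3.67%). The median difference of the members was 0.04, beside 0.14 for all genes, and it ranged from -3.42 to 2.21. Absolute differences of at least 1 were found in 10 members (14.5%), beside 6.85% of all genes. Without Sox2-GFP+ replicate 1, whose removal also loosens the rule, 4 members were separated by 1 log2 unit upward and 10 downward, beside 532 and 549 of all 18193 genes. Without Sox2-GFP- replicate 2 these counts were 1 and 7, beside 258 and 746 of all genes.

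**Figure D1:**
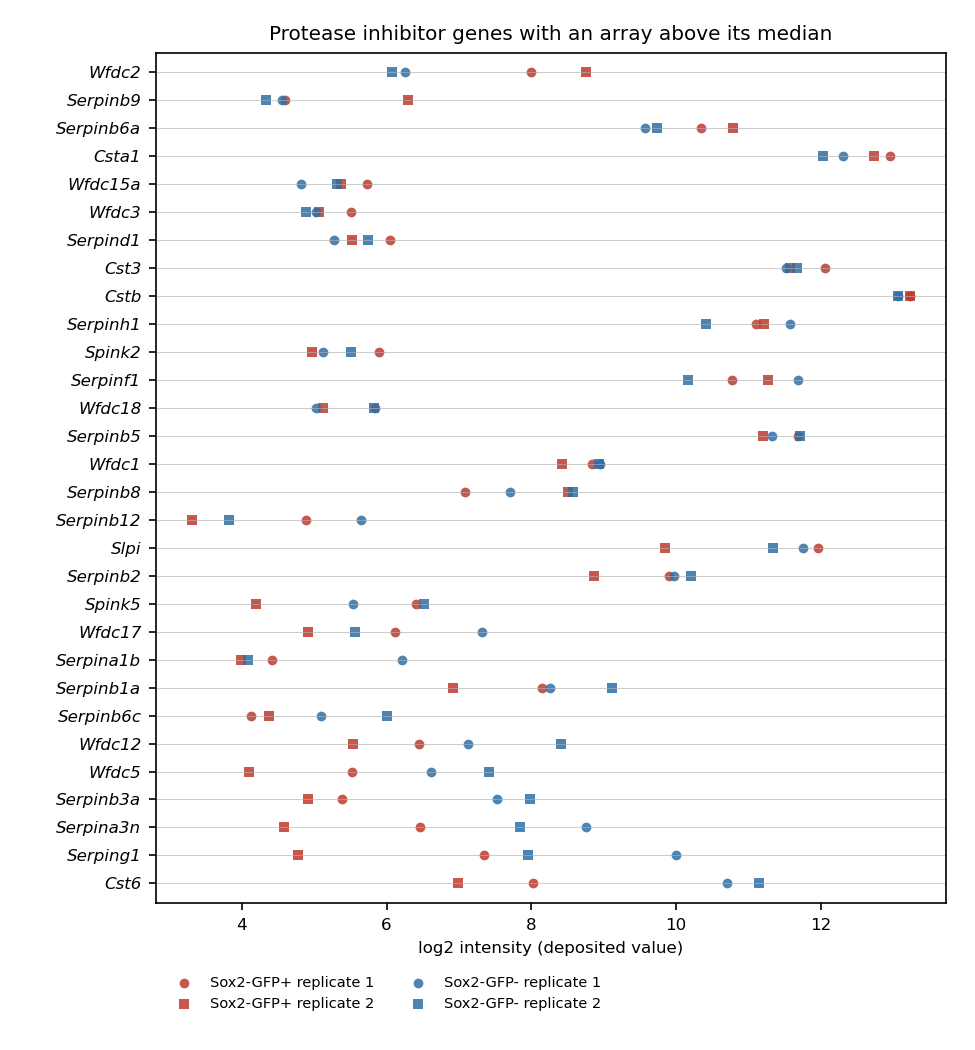
Deposited log2 intensity (x axis) of the 30 members with at least 1 array above its median, ordered down the page by the difference between groups, with 1 point per array, red for Sox2-GFP+ and blue for Sox2-GFP-. The red points of Wfdc2 lie 1.73 above the blue ones at the top, and those of Cst6 lie 2.69 below the blue ones at the bottom; no error bars are drawn because every array is shown.

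**Figure D2:**
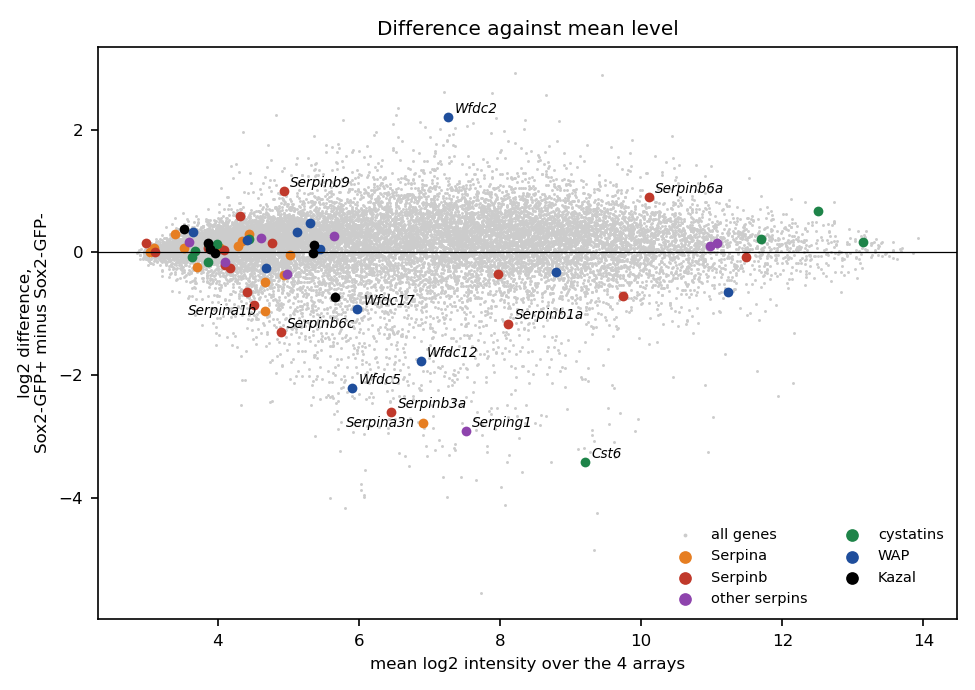
Log2 difference (y axis) against the mean log2 intensity over the 4 arrays (x axis), with all 18193 genes as small grey points and the 69 members as coloured points by family. Most members sit at low intensity near 0, and 7 of the labelled members lie below -1.2 while Wfdc2 lies at 2.21.

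Proximal promoters of 5 members are shown because these genes differ in how they behaved between the groups: Wfdc2 and Wfdc12 lie in the same WAP cluster on chromosome 2 with differences of opposite sign, and Serpinb3a, Serpinb2 and Serpinb5 lie in the same serpin cluster on chromosome 1 with a large, a small and no clear difference. Each sequence is the 250 bases before the RefSeq transcription start (GRCm38.p6), on the gene's own strand. Capitals mark matches to 4 motifs searched on both strands: the TATA box TATAAA, the AP-1-like pattern TGANTCA, the GC box GGGCGG and the SOX site AACAAT. They lie at chr2:164562465-164562714 (+), chr2:164190559-164190808 (-), chr1:107052304-107052553 (-), chr1:107511173-107511422 (+) and chr1:106860925-106861174 (+).
Wfdc2: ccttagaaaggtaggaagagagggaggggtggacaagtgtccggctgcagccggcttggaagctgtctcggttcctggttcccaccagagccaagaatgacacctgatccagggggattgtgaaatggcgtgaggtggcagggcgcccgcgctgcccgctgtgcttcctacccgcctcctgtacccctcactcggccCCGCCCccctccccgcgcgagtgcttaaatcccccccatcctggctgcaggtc
Wfdc12: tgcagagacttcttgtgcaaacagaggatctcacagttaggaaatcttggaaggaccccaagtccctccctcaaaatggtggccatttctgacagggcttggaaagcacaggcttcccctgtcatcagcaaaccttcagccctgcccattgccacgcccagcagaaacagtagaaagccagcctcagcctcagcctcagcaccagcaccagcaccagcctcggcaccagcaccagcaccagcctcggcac
Serpinb3a: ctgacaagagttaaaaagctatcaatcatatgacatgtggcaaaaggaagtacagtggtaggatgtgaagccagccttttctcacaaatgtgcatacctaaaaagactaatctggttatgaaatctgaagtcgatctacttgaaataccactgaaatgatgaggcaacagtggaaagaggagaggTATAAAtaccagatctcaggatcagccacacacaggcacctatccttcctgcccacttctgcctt
Serpinb2: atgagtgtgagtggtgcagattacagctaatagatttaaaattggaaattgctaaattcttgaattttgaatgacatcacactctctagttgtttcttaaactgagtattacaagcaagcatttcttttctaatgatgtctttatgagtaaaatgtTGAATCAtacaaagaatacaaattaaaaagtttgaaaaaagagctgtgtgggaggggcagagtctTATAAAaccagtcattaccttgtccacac
Serpinb5: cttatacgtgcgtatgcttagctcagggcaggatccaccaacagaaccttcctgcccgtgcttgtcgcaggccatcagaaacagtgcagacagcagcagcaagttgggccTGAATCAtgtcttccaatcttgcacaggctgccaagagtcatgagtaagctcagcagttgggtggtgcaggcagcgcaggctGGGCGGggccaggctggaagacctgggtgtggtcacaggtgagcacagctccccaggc
A match is a run of letters and not a measured site. N is any base, so TGANTCA is wider than the AP-1 consensus TGA(C/G)TCA. An AP-1 match here means a match to TGANTCA. The Wfdc2 stretch held a GC box in reverse, CCGCCC, 53 to 48 bases before the start. In Serpinb3a a TATA box lay 65 to 60 bases before the start. Serpinb2 held a TATA box 29 to 24 bases before the start and an AP-1 match 94 to 88 bases before it. Serpinb5 held an AP-1 match 140 to 134 and a GC box 58 to 53 bases before the start. The AP-1 matches of Serpinb2 and Serpinb5 both read TGAATCA, which is outside the consensus. None of the 4 motifs was in the Wfdc12 window. Over the 51 members with a RefSeq stretch, 17.6% held the AP-1 match, beside 5.58% of 14452 genes tested, and 17.6% held the TATA box, beside 9.02%. The GC box was in 15.7% of them, beside 49.9% of all, and the SOX match in 9.8%, beside 6.55%. The AP-1 match was unevenly placed in the family: 6 of the 7 Serpinb genes on chromosome 1 held it, all but Serpinb3a, and 0 of 10 on chromosome 13.

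Among the secreted WAP proteins, Wfdc2 and its neighbours Wfdc5 and Wfdc12 differed in opposite directions. Wfdc2, whose human counterpart is the serum tumour marker HE4, read 7.99 and 8.76 in Sox2-GFP+ cells and 6.26 and 6.08 in Sox2-GFP- cells. Every array was above its median, and the 2 groups were 1.73 apart at their nearest arrays. The means were 8.37 ± 0.55 in Sox2-GFP+ cells and 6.17 ± 0.13 in Sox2-GFP- cells (SD, n = 2 each), a 4.62-fold higher level (difference 2.21 ± 0.31 SE, limma adjusted p = 0.18). Wfdc5, a WAP protein, read 5.52 and 4.10 in Sox2-GFP+ cells against 6.62 and 7.42 in Sox2-GFP- cells. Its Sox2-GFP+ replicate 2 was dim, and the groups were 1.10 apart (4.64-fold lower, difference -2.21 ± 0.55 SE, limma adjusted p = 0.233). Without that array the difference was -1.50, and without Sox2-GFP+ replicate 1 it was -2.92. Wfdc12, its neighbour, read 6.45 and 5.54 in Sox2-GFP+ cells against 7.12 and 8.41 in Sox2-GFP- cells, again without overlap (-1.77 ± 0.54 SE, limma adjusted p = 0.262).

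Other WAP genes showed smaller gaps. Slpi, the secretory inhibitor of neutrophil elastase and cathepsin G, read 11.96 and 9.85 in Sox2-GFP+ cells and 11.76 and 11.34 in Sox2-GFP- cells. Only Sox2-GFP+ replicate 2 was apart, and the highest array of all was the other Sox2-GFP+ replicate. The neutrophil genes S100a8 and S100a9, which keratinocytes can also make, had the same low array, at 8.24 and 9.74 beside 10.99 to 12.35 in the other arrays, and the part of leukocyte or suprabasal RNA in Slpi was not tested. Wfdc1, also called ps20, read 8.84 and 8.42 in Sox2-GFP+ cells and 8.95 and 8.94 in Sox2-GFP- cells (-0.32 ± 0.23 SE, limma adjusted p = 0.546). For Wfdc17, Sox2-GFP+ cells read 6.11 and 4.92, and Sox2-GFP- cells read 7.32 and 5.57. Its groups overlapped, and replicate 1 was the higher array in each group. Wfdc15a read 5.73 and 5.37 in Sox2-GFP+ cells and 4.82 and 5.32 in Sox2-GFP- cells, a gap of 0.04. Wfdc3, Wfdc6a and Wfdc15b were also above by gaps of 0.04 to 0.14 at values near or under the median, and the second probe set of Wfdc3 gave -0.02 where the first gave 0.34.

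Cystatins differed by gene, with the secreted Cst6 far below and the cytosolic Csta1 slightly above. The differences of the cytosolic Cstb and the secreted Cst3 were small, at 0.17 and 0.22. Cst6, cystatin M/E, a secreted inhibitor of legumain and cathepsin L whose loss causes the ichq phenotype of abnormal cornification in mice, read 8.02 and 6.99 in Sox2-GFP+ cells against 10.71 and 11.14 in Sox2-GFP- cells. All its arrays were above the median, and the groups were 2.69 apart, the widest gap of any member. The means were 7.50 ± 0.73 in Sox2-GFP+ cells and 10.92 ± 0.30 in Sox2-GFP- cells (SD, n = 2 each), a 10.7-fold lower level (-3.42 ± 0.40 SE, limma adjusted p = 0.158). Csta1, a relative of stefin A, which blocks cathepsins in the cytosol, read 12.95 and 12.74 in Sox2-GFP+ cells and 12.30 and 12.03 in Sox2-GFP- cells. The groups were 0.44 apart and the level was 1.6-fold higher (0.68 ± 0.21 SE, limma adjusted p = 0.272). Cstb, stefin B, was bright and nearly level, at 13.23 and 13.23 in Sox2-GFP+ cells against 13.06 and 13.07 in Sox2-GFP- cells (0.17 ± 0.18 SE, limma adjusted p = 0.68). Cst3, cystatin C, the most widely made secreted cystatin, overlapped at 12.06 and 11.57 in Sox2-GFP+ cells and 11.52 and 11.67 in Sox2-GFP- cells. The other 6 cystatins, among them the leukocyte cystatin F gene Cst7, had no array above the median and differences of -0.15 to 0.22.

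Intracellular clade B serpins made up the largest family, with 5 of 18 above the median in every array. Serpinb3a, the mouse relative of the human squamous cell carcinoma antigens, read 5.39 and 4.92 in Sox2-GFP+ cells against 7.53 and 7.98 in Sox2-GFP- cells. Its Sox2-GFP+ arrays were below their medians, the groups were 2.14 apart, and the level was 6.07-fold lower (-2.60 ± 0.28 SE, limma adjusted p = 0.157). The probe set's identifier ends in x, which marks probes that may cross-hybridise with related genes, so the reading may hold other copies of the Serpinb3 group. Serpinb2, plasminogen activator inhibitor 2, read 9.90 and 8.87 in Sox2-GFP+ cells and 9.97 and 10.21 in Sox2-GFP- cells, a gap of only 0.07 (-0.71 ± 0.38 SE, limma adjusted p = 0.454). Serpinb5, maspin, a serpin with no known protease target, was bright and overlapped at 11.69 and 11.20 in Sox2-GFP+ cells and 11.32 and 11.71 in Sox2-GFP- cells. Its 3 other probe sets gave differences of -0.43 to -0.67, where the brightest gave -0.07.

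Further clade B members on chromosome 1 differed by less than 1 log2 unit. Serpinb11 read 4.37 and 3.82 in Sox2-GFP+ cells against 4.78 and 5.13 in Sox2-GFP- cells, below the median in all arrays and 0.42 apart. Serpinb12 overlapped, at 4.88 and 3.31 in Sox2-GFP+ cells and 5.64 and 3.82 in Sox2-GFP- cells, with replicate 1 the brighter in each group. Serpinb8, which in human cells inhibits furin, overlapped at 7.08 and 8.50 in Sox2-GFP+ cells and 7.70 and 8.58 in Sox2-GFP- cells. Its brighter array in each group was replicate 2.

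The granzyme and granule protease inhibitors of clade B lie on chromosome 13 and included the family's members above Sox2-GFP- cells. Serpinb6a, which inhibits cathepsin G, read 10.34 and 10.79 in Sox2-GFP+ cells and 9.57 and 9.74 in Sox2-GFP- cells. It was bright in every array and 0.60 apart, at a 1.88-fold higher level (0.91 ± 0.24 SE, limma adjusted p = 0.237). Serpinb9, the inhibitor of granzyme B, read 4.59 and 6.29 in Sox2-GFP+ cells and 4.55 and 4.33 in Sox2-GFP- cells. One Sox2-GFP+ array carries that difference (1.0 ± 0.58 SE, limma adjusted p = 0.472): the other is 0.04 above the nearest Sox2-GFP- array, and a second probe set gave 0.24. Without Sox2-GFP+ replicate 2 the difference was 0.15, and without Sox2-GFP+ replicate 1 it was 1.85. Serpinb6b showed the same array apart, at 4.07 and 5.17 in Sox2-GFP+ cells and 4.10 and 3.93 in Sox2-GFP- cells. Serpinb6c read 4.12 and 4.38 in Sox2-GFP+ cells against 5.09 and 6.01 in Sox2-GFP- cells, a gap of 0.71 at a level dim in Sox2-GFP+ cells (-1.30 ± 0.35 SE, limma adjusted p = 0.243). Its probe set is marked, by the suffix s, as shared by several transcripts. Serpinb1a, an inhibitor of neutrophil elastase, read 8.15 and 6.92 in Sox2-GFP+ cells and 8.26 and 9.12 in Sox2-GFP- cells. The gap was 0.11 in that probe set (-1.16) and 1.05 in a second one (-1.48), both in the same direction.

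Clade A serpins were mostly dim, with 12 of 14 below the median in every array. Serpina3n, a mouse relative of alpha-1-antichymotrypsin that inhibits granzyme B and neutrophil proteases, read 6.46 and 4.58 in Sox2-GFP+ cells against 8.76 and 7.85 in Sox2-GFP- cells. The groups were 1.38 apart, with Sox2-GFP+ replicate 2 lowest and Sox2-GFP- replicate 1 highest (6.88-fold lower, -2.78 ± 0.69 SE, limma adjusted p = 0.233). The difference was -1.84 without Sox2-GFP+ replicate 2 and -3.73 without Sox2-GFP+ replicate 1. Serpina1b, an alpha-1-antitrypsin gene with near-identical copies and an x probe set, read 4.41 and 3.99 in Sox2-GFP+ cells and 6.21 and 4.08 in Sox2-GFP- cells. Only Sox2-GFP- replicate 1 was above its median. The other 12 clade A genes, which include the genes for corticosteroid-binding globulin (Serpina6) and vaspin (Serpina12), had differences of -0.48 to 0.30.

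Serping1, the C1 inhibitor of the complement and contact systems, had the largest difference of the remaining serpins. It read 7.34 and 4.77 in Sox2-GFP+ cells against 10.00 and 7.95 in Sox2-GFP- cells. The groups were 0.61 apart although replicates differed by more than 2 log2 units within each group (-2.92 ± 1.06 SE, limma adjusted p = 0.315). The difference was -1.64 without Sox2-GFP+ replicate 2 and -4.21 without Sox2-GFP+ replicate 1. Serping1 and Serpina3n followed the same order over the arrays as the mean of the 9 fibroblast markers: Sox2-GFP- replicate 1, Sox2-GFP- replicate 2, Sox2-GFP+ replicate 1 and Sox2-GFP+ replicate 2, from high to low. Beside them the median difference of those 9 markers was -2.54, and the part of fibroblast RNA in these results was not tested.

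Of the matrix-linked serpins, Serpinf1 had an order of arrays that depended on the probe set. Serpinh1 had the same order in its second probe set, which gave a difference of 0.26. Serpinh1, the collagen chaperone HSP47, read 11.10 and 11.22 in Sox2-GFP+ cells and 11.57 and 10.42 in Sox2-GFP- cells, where the 2 Sox2-GFP- arrays lay on either side of both Sox2-GFP+ arrays (0.16 ± 0.41 SE, limma adjusted p = 0.87). Serpinf1, pigment epithelium-derived factor, likewise read 10.77 and 11.27 in Sox2-GFP+ cells and 11.68 and 10.17 in Sox2-GFP- cells (0.10 ± 0.54 SE, limma adjusted p = 0.944). A second, dimmer probe set of Serpinf1 read 8.99 and 8.48 in Sox2-GFP+ cells and 10.88 and 9.23 in Sox2-GFP- cells, a difference of -1.32. That probe set follows the order of the fibroblast markers and the brighter one does not, so the direction of this gene is unsettled. Serpini1, Serpini2, Serpinc1, Serpind1 and Serpinf2, the genes for neuroserpin, pancpin, antithrombin, heparin cofactor II and alpha-2-antiplasmin, had differences of -0.35 to 0.27. In Serpini1 the probe sets differed in sign.

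**Figure D3:**
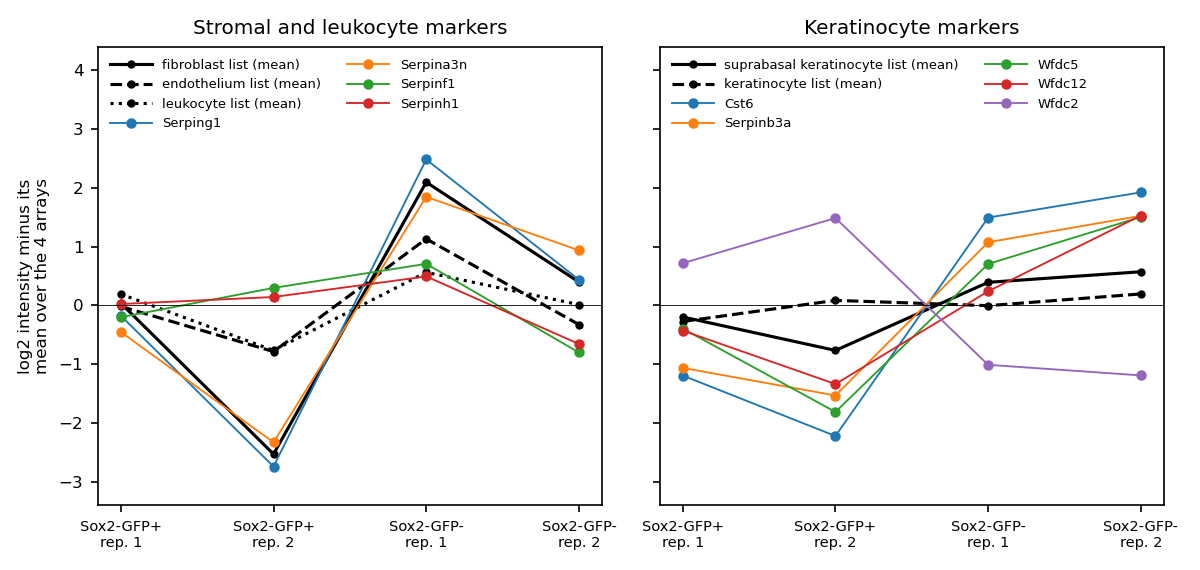
Log2 intensity of each gene minus its own mean over the 4 arrays (y axis) for each array (x axis), with cell type marker lists as black lines (mean of their genes) and members as coloured lines; the lines join arrays for reading and are no time course. On the left, Serping1 and Serpina3n run beside the fibroblast list while the brightest probe sets of Serpinf1 and Serpinh1 do not (a second Serpinf1 probe set, not drawn, does); on the right, Cst6, Serpinb3a, Wfdc5 and Wfdc12 lie lower in Sox2-GFP+ cells with the suprabasal list, and the keratinocyte list is nearly level.

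Suprabasal keratinocyte markers also differed beside the epidermal inhibitors. The summed log2 level of 7 such markers was 14.21 and 13.77 in Sox2-GFP+ cells against 14.54 and 14.58 in Sox2-GFP- cells. Their median difference was -0.59. Without overlap, 2 markers were above (28.6%, background 35.5%) and 3 below (42.9%, background 14%). Those below were Krt1 (-1.94), Krt10 and Flg (-2.48), which was dim in both Sox2-GFP+ arrays. Those above were Ivl (0.41) and Krtdap, the latter by a margin that rounds to 0. Krt10 read 11.15 and 9.57 in Sox2-GFP+ cells and 12.17 and 11.88 in Sox2-GFP- cells, while Krtdap, another early differentiation gene, was level at 13.34 and 13.33 in Sox2-GFP+ cells and 13.27 and 13.33 in Sox2-GFP- cells. Cst6, Serpinb3a, Wfdc5 and Wfdc12 were lower in both Sox2-GFP+ arrays, and the part of differentiated cells in these 4 results was not tested. Leukocyte markers summed to 13.13 and 10.62 in Sox2-GFP+ cells and 12.98 and 12.67 in Sox2-GFP- cells. This sum was carried by the bright S100a8 and S100a9, which keratinocytes can also make. The mean of the 12 leukocyte markers was 6.51 and 5.55 in Sox2-GFP+ cells and 6.88 and 6.33 in Sox2-GFP- cells. Of these markers, Cd3g and Adgre1 were below the lower quartile of every array.

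Kazal inhibitors showed no separation beyond 0.21. Spink5, LEKTI, the inhibitor of epidermal kallikreins whose loss causes Netherton syndrome in humans, read 6.41 and 4.20 in Sox2-GFP+ cells and 5.54 and 6.52 in Sox2-GFP- cells. The Sox2-GFP+ arrays were farther apart than in any other Kazal gene, with a Sox2-GFP- array between them (-0.73 ± 0.79 SE, limma adjusted p = 0.689). Spink2, known from the testis, read 5.89 and 4.97 in Sox2-GFP+ cells and 5.12 and 5.51 in Sox2-GFP- cells. The other 5 Kazal genes had no array above the median, and of them Spink10 and Spink1 were above without overlap, by 0.21 and 0.01.

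Neighbouring inhibitor genes differed alike in some stretches and not in others. Along chromosome 2 the order of the 8 WAP genes was Wfdc5, Wfdc12, Wfdc15a, Wfdc15b, Slpi, Wfdc2, Wfdc6a and Wfdc3. Both Sox2-GFP+ arrays were below for the first pair, above for all that follow except Slpi, and the median difference was 0.27. By any margin, 35.5% of all genes were above and 14% below. The 7 Serpinb genes of chromosome 1 had 0 above and 3 below without overlap (Serpinb3a, Serpinb11 and Serpinb2) and a median of -0.64. On chromosome 13, 3 of 11 Serpinb genes were above (Serpinb9, Serpinb9g and Serpinb6a), 2 were below (Serpinb1a and Serpinb6c), and the median was 0.08. The spike-in scaling shift of 0.79 is larger than either serpin median, so the sign of these medians holds on the deposited scale and turns on chromosome 1 with spike-in scaling.

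**Figure D4:**
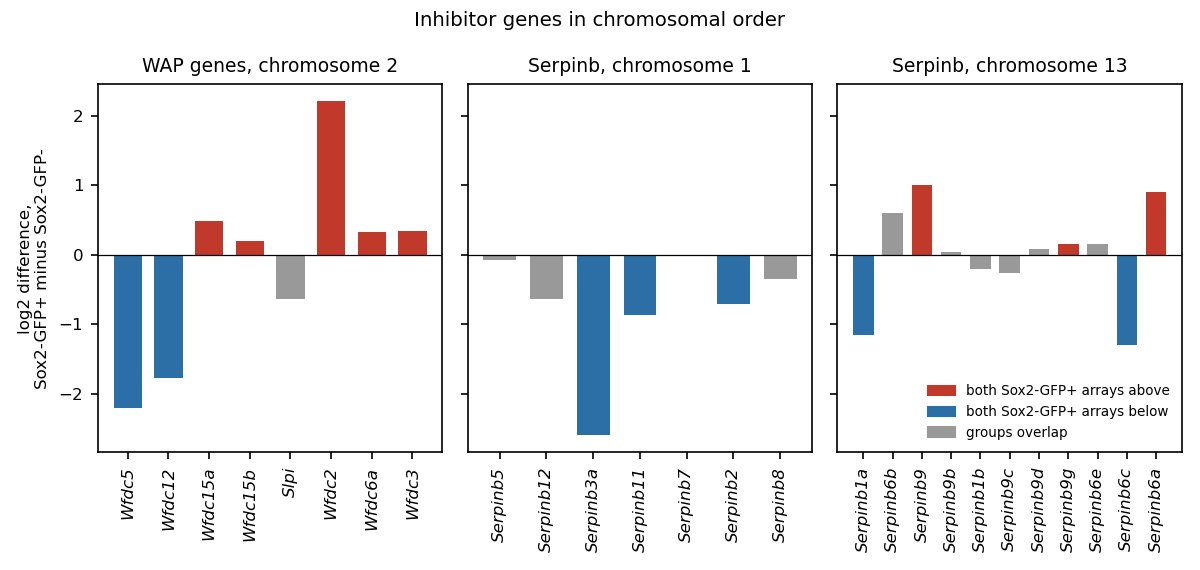
Log2 difference on the deposited scale (y axis) of WAP genes on chromosome 2 and Serpinb genes on chromosomes 1 and 13, each bar 1 gene in chromosomal order (x axis, spacing not to scale), red or blue where both Sox2-GFP+ arrays were above or below both Sox2-GFP- arrays and grey where the groups overlap. Wfdc5 and Wfdc12 at -2.21 and -1.77 stand at one end of the WAP group and Wfdc2 at 2.21 further along; bars carry no error bars, and the array values are in the text.

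Genes on protease lists of 5 kinds were counted, not all of them known targets of these inhibitors. Plaur, the urokinase receptor gene on the plasminogen activation list, is no protease gene. Over the 5 lists, 45 genes were measured. None was separated by 1 log2 unit upward (background 0.665%) and 5 were separated downward (11.1%, background 1.36%): the kallikreins Klk5, Klk6, Klk7 and Klk13, and the plasminogen activator Plat. By any margin 8 were above (17.8%, background 35.5%) and 16 below (35.6%, background 14%), and the median difference was -0.11, beside 0.14 for all genes. Without Sox2-GFP- replicate 2 the downward count was 13, beside 746 of all 18193 genes. Without Sox2-GFP+ replicate 1 the counts were 3 upward and 10 downward, beside 532 and 549 of all genes.

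Kallikreins, some of which are targets of Spink5, had the lowest median of the 5 lists, at -1.24 over 9 genes. Klk14 was also listed and was not measured. Klk7, the chymotrypsin-like kallikrein of the cornified layer, read 7.65 and 6.85 in Sox2-GFP+ cells against 11.30 and 11.70 in Sox2-GFP- cells (-4.24 ± 0.34 SE, limma adjusted p = 0.157). Klk5 read 4.92 and 3.97 in Sox2-GFP+ cells against 6.67 and 6.90 in Sox2-GFP- cells. Klk6 read 5.93 and 5.56 in Sox2-GFP+ cells against 7.48 and 8.50 in Sox2-GFP- cells. All 3 were below in both Sox2-GFP+ arrays, whereas their inhibitor Spink5 overlapped between the groups. Klk13 read 8.27 and 7.97 in Sox2-GFP+ cells against 9.38 and 9.58 in Sox2-GFP- cells. Klk11 read 6.23 and 6.56 in Sox2-GFP+ cells against 7.44 and 7.82 in Sox2-GFP- cells, a gap of 0.89. Klk8 overlapped, at 9.72 and 11.92 in Sox2-GFP+ cells and 10.09 and 10.59 in Sox2-GFP- cells.

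Cathepsins, the targets of the cystatins, split by gene. Ctsl, cathepsin L, read 11.43 and 11.59 in Sox2-GFP+ cells and 10.94 and 10.65 in Sox2-GFP- cells (0.72 ± 0.21 SE), while its inhibitor Cst6 lay below. Ctsh read 8.26 and 8.49 in Sox2-GFP+ cells against 8.93 and 9.14 in Sox2-GFP- cells, and Ctsb was level (-0.04 ± 0.18 SE). Legumain (Lgmn), the other target of Cst6, read 8.24 and 7.52 in Sox2-GFP+ cells and 7.81 and 7.30 in Sox2-GFP- cells and overlapped. Ctsk, Ctss and Ctsz had their highest value in Sox2-GFP- replicate 1. That array also had the highest mean of the fibroblast, endothelial, leukocyte, mast cell and melanocyte lists. The part of each cell type in these genes was not tested. Over the 11 genes the median was 0.17, with 1 above and 4 below (9.09% and 36.4%, background 35.5% and 14%).

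Plasminogen activation genes differed in direction. Plau, urokinase, a target of Serpinb2, read 10.83 and 11.77 in Sox2-GFP+ cells and 10.58 and 10.68 in Sox2-GFP- cells, a gap smaller than the spread of the Sox2-GFP+ arrays. Plat, the tissue-type activator, read 6.04 and 5.47 in Sox2-GFP+ cells against 8.46 and 7.54 in Sox2-GFP- cells (-2.25 ± 0.39 SE, limma adjusted p = 0.184). Of the 12 genes listed as membrane-anchored serine proteases, 2 were above and 2 below (16.7% each, background 35.5% and 14%). Tmprss4 had the largest difference, at 7.35 and 5.23 in Sox2-GFP+ cells against 8.41 and 8.31 in Sox2-GFP- cells. The largest upward difference was that of Prss22, a tryptase gene on that list whose product is secreted. It read 6.68 and 7.34 in Sox2-GFP+ cells and 5.86 and 5.92 in Sox2-GFP- cells. The neutrophil proteases Elane, Prtn3 and Ctsg, targets of Serpinb1a, had no array above the median. Of them, Elane and Ctsg encode the targets of Slpi. Of all 9 leukocyte serine proteases 2 were above and 4 below (22.2% and 44.4%, background 35.5% and 14%), with a median of -0.28. Among the mast cell protease genes, Mcpt4, Tpsb2 and, by 0.01, Cma1 were below, and Tpsab1 overlapped. Mcpt4 read 5.10 and 3.81 in Sox2-GFP+ cells against 8.0 and 5.64 in Sox2-GFP- cells, with Sox2-GFP- replicate 1 highest.

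Inhibitors of other families were taken from a list of 21, of which 19 were measured, with 6 above and 8 below without overlap (31.6% and 42.1%, background 35.5% and 14%) and a median of -0.30. Timp3, an inhibitor of metalloproteases, read 7.55 and 6.69 in Sox2-GFP+ cells against 9.66 and 9.55 in Sox2-GFP- cells (-2.48 ± 0.33 SE, limma adjusted p = 0.18). Tfpi2 read 3.25 and 3.40 in Sox2-GFP+ cells against 4.72 and 4.55 in Sox2-GFP- cells, dim in all arrays. The next widest gaps were 0.65 in Tfpi and 0.56 in Timp1, both below. Tfpi read 4.41 and 4.72 in Sox2-GFP+ cells against 7.98 and 5.36 in Sox2-GFP- cells. Timp1 read 8.24 and 8.32 in Sox2-GFP+ cells against 9.30 and 8.88 in Sox2-GFP- cells. Stfa2l1, a stefin A relative on the same list, read 10.33 and 8.91 in Sox2-GFP+ cells and 8.61 and 8.29 in Sox2-GFP- cells. The matriptase inhibitors differed from each other, Spint1 at 8.68 and 8.79 in Sox2-GFP+ cells against 9.17 and 9.42 in Sox2-GFP- cells, and Spint2 at 11.05 and 11.14 in Sox2-GFP+ cells against 10.74 and 10.90 in Sox2-GFP- cells.

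**Figure D5:**
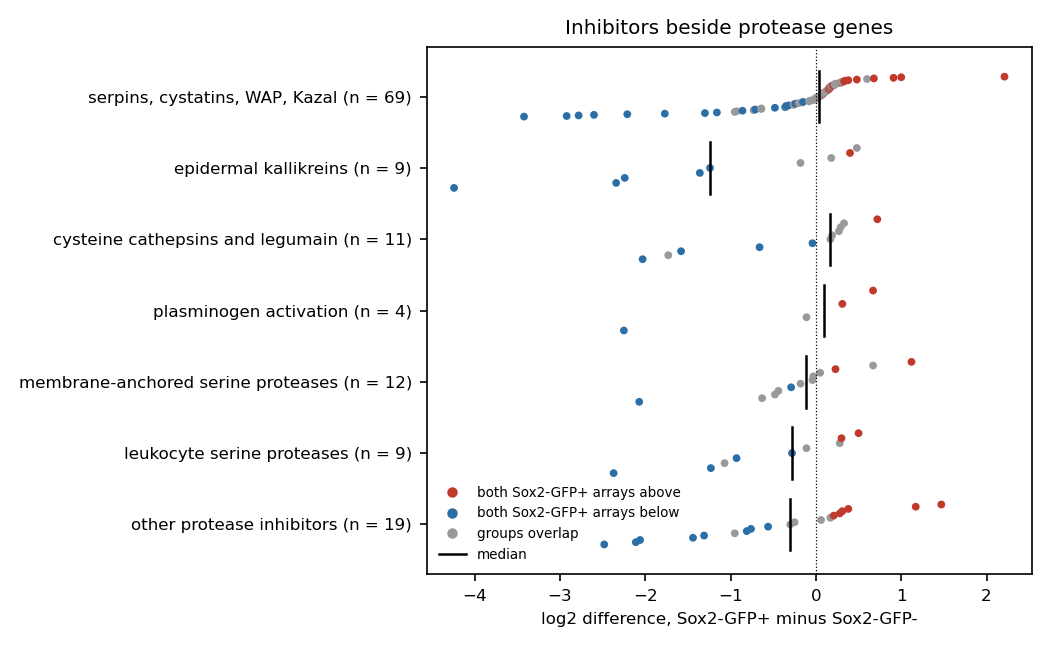
Log2 difference (x axis) of each gene in the 69 inhibitors, the 5 protease lists and the list of other inhibitors (rows), coloured by whether both Sox2-GFP+ arrays were above (red) or below (blue) both Sox2-GFP- arrays or overlapped (grey), with a black bar at the median. The kallikrein median is -1.24, the cathepsin median 0.17 and the inhibitor median 0.04.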

How the data were processed

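The authors deposited 1 table of log2 values for 45101 probe sets and 4 arrays; the log2 scale was read from the values (2.73 to 14.36). Per the labels' protocols, 100 ng of total RNA per sample was amplified and biotin-labelled with a 3' in vitro transcription kit. The submitters' processing notes name R 2.14.0; normalization and genome build are not stated there. After 64 control probe sets were left out, 34945 had 1 gene symbol, 932 several and 9160 none; 34741 were matched to RefSeq (GRCm38.p6).

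Each of 18193 genes took its probe set with the highest mean. Groups came from sample titles. The 2 groups were compared with limma 3.58.1 (R 4.3.3; lmFit, eBayes, Benjamini-Hochberg over all genes, two-sided), with 2 residual and 2.92 prior degrees of freedom, tested on simulated data. Separation by 1 log2 unit was counted without a test. Members and lists were chosen with earlier results of these data known. Named members are those with the widest gaps (12 per direction), the 2 brightest per family, those whose probe sets differ in sign and 7 known inhibitors; of the lists, the separated genes and up to 2 more by gap. The values of Serpinb6b, Serpinb8, Serpinb12, Wfdc17, Serpina1b, Klk8, Lgmn, Plau, Tmprss4 and Mcpt4 were chosen for their role or after they were seen. So were those of Wfdc15a, Ctsb, Ctsh, Stfa2l1, Spint1 and Spint2. Alternatives are in the closing section. The fit used the group alone, without a replicate block, because the replicate number is not stated to mark a tumour. Nothing says that replicates were processed apart, so p-values may measure technical spread.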

Additional observations from a re-analysis of the deposited data

How the results depend on the processing

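At 2 arrays per group the limma test called 0 members as deposited, with quantile normalization, with equal array medians, without the dimmer genes and without any 1 array; it called 1 (Cst6, adjusted p = 0.0423) with a trended prior and 45 (41 higher and 4 lower) when arrays were scaled to 24 bacterial spike-in probe sets, where 12559 genes lay higher. The replicate number is not stated to mark a tumour, and deviations of same-numbered arrays correlated weakly (r = 0.16). With the replicate number as a block, limma called 4 members, all lower: Serping1 (adjusted p = 0.0273), Serpina3n (0.0363), Cst6 (0.0372) and Serpinb3a (0.0389), where 13 genes lay higher and 158 lower. The 1 member separated upward became 15 at any margin, 2 at a margin of 0.5, 4 with spike-in scaling and 1 to 4 without 1 array. The 4 separated downward became 16, 7, 2 (Cst6 and Serpinb3a) and 4 to 10. Genes of the protease lists separated upward and downward were 2 and 2 with spike-in scaling, and 0 to 3 and 6 to 13 without 1 array. The median member difference was 0.83 with spike-in scaling (0.93 for all genes), -0.34 over the 18 members left without the dimmer genes, and -0.09 to 0.10 without 1 array. Signs turned with quantile normalization in Serpina11 (0.03) and Serpinf1 (-0.0), with equal medians in Serpinb5 (0.02) and Serpina11 (0.04), and with the mean of probe sets in Serpinf1 (-0.61). Spike-in scaling turned Spink5 (0.06), Serpinb2 (0.09), Slpi (0.15), Serpina9 (0.31), Serpina3i (0.43), Serpinc1 (0.45), Wfdc1 (0.47), Serpini1 (0.64), Serpinb5 (0.72) and Serpina11 (0.75). Without 1 array the difference ranged from -0.34 to 0.58 in Spink2, -0.02 to 0.46 in Cst3, -1.83 to 0.38 in Spink5, -1.70 to 0.41 in Slpi, -0.31 to 0.18 in Serpinb5, -0.22 to 0.15 in Serpina11, -0.66 to 0.85 in Serpinf1 and -0.41 to 0.73 in Serpinh1. The causes were not tested.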
